A study of Homo sapiens with 8 samples.

Results

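Bidirectional promoters of protein-coding genes were described in 6 chromatin libraries of HCT8 cells, a colorectal adenocarcinoma line of ileocecal origin. A bidirectional promoter was taken as a pair of protein-coding genes on opposite strands of chromosomes 1 to 22 whose 5′ ends lie head to head, 1 to 1000 bp apart (GENCODE release 44 on GRCh37). The rule gave 859 pairs with 1656 of the 19229 coding genes. Pairs that share a gene were joined, which left 798 promoters, each named after its closest pair as minus-strand gene/plus-strand gene. The other 17573 coding genes, called unpaired genes here, served for comparison.

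HCT8 cells were kept for 5 hours with membrane vesicles (MVs) from *V. cholerae* C6706, with MVs from *E. coli* MC1061, or without MVs (mock). Mock cells, which the labels call non treated, were given Tris-HCl, the buffer in which the MVs were suspended. H3K4me3, trimethylation of lysine 4 on histone H3, was mapped by ChIP-seq, and nucleosome-free DNA by FAIRE, formaldehyde-assisted isolation of regulatory elements. Each treatment had 1 library per assay, so no difference below carries a replicate check or a p-value, and intervals cover counting error or the spread over promoters only.

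At a bidirectional promoter the 2 genes are transcribed away from each other, out of a short stretch of DNA that lies upstream of both. Such promoters are usually CpG-rich and seldom hold a TATA box, and many of them serve housekeeping genes of DNA repair, mitochondria and the histone clusters. H3K4me3 marks nucleosomes at starts of active or poised genes, mostly on the first nucleosomes downstream of the start, while the start itself tends to be free of nucleosomes. FAIRE enriches that free DNA.

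The DNA between the starts is short enough to be shown whole. The stretches below run between the outermost annotated 5′ ends, 5′ to 3′ on the plus strand of GRCh37, and capitals mark matches on either strand to TATAAA (the TATA box), to CCAAT (NF-Y), to GGGCGG (SP1), CCGGAAG (ETS), GCATGCGC (NRF1), AAGATGGCG (YY1), TGACGTCA (CRE) or TGANTCA (AP-1). They are examples of high and low H3K4me3 ratios, of classical pairs and of a histone pair. MAN2B1/WDR83 (chr19:12777557-12777615), MBOAT7/TSEN34 (chr19:54693734-54693788) and STX10/IER2 (chr19:13261198-13261224) are from pairs with higher H3K4me3 levels after MVs than in mock. Of all pairs with ratios, 86.6% were above mock after *V. cholerae* MVs and 95.8% after *E. coli* MVs. The size of the MAN2B1/WDR83 ratio depends on how peaks were counted, as given below.
MAN2B1/WDR83: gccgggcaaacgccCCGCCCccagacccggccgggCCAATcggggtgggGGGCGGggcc
MBOAT7/TSEN34: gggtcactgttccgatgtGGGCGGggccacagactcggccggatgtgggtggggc
STX10/IER2: CTTCCGGtgcacatgcccCCGCCCctt
ALKBH1/SLIRP (chr14:78174367-78174413), CBX5/HNRNPA1 (chr12:54673918-54673976), C2CD3/PPME1 (chr11:73882256-73882311) and WDHD1/SOCS4 (chr14:55493824-55493947) are from pairs with lower H3K4me3 levels after *V. cholerae* MVs than in mock.
ALKBH1/SLIRP: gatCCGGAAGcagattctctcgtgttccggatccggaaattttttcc
CBX5/HNRNPA1: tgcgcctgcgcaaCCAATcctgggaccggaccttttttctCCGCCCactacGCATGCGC
C2CD3/PPME1: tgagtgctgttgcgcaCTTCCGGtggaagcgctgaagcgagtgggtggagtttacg
WDHD1/SOCS4: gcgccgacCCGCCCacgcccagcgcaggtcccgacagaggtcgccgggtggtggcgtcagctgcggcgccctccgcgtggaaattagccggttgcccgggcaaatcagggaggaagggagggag
PPAT/PAICS (chr4:57301782-57301906), which encodes 2 enzymes of purine synthesis, and SARS2/MRPS12 (chr19:39421404-39421583), a mitochondrial seryl-tRNA synthetase and a mitochondrial ribosomal protein, are classical pairs. H2AC14/H2BC14 (chr6:27782556-27782799) encodes histones H2A and H2B.
PPAT/PAICS: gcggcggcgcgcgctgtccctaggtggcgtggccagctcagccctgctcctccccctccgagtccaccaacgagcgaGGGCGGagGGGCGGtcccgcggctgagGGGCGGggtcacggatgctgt
SARS2/MRPS12: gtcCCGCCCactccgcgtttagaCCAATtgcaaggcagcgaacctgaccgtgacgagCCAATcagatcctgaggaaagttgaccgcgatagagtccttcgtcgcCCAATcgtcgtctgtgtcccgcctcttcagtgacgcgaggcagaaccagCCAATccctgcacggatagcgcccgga
H2AC14/H2BC14: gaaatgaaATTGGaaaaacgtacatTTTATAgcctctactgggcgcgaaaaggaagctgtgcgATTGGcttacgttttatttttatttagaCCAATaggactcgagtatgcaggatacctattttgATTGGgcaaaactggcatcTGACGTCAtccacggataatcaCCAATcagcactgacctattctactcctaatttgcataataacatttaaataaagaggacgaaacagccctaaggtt
The histone stretch has 38.9% G and C and holds a TATA box, a CRE and several CCAAT boxes, whereas the MAN2B1/WDR83 stretch has 84.7% G and C. POLR2L/TSPAN4 and DDX51/NOC4L, whose FAIRE values are given below, are joined by 282 and 137 bp with 42 and 24 CpG dinucleotides.

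The starts of the pairs were a median of 127.5 bp apart, with quartiles of 68.25 and 238.8 bp and a range of 1 to 995 bp. Over 1000 bp around the midpoint, GC content had a median of 62.0% in pairs and 58.9% around the starts of unpaired genes. The observed over expected CpG ratio was above 0.6 in 733 pairs (91.9%), against 57.4% of unpaired genes. In the 300 bp promoter of each gene (250 bp before to 50 bp after the start), TATAAA was found in 4.83% of genes in pairs and 11.5% of unpaired genes. CCGGAAG, which ETS-family factors can bind, was found in 27.8% of genes in pairs and 10.4% of unpaired genes, and in 11.9% of all genes. GCATGCGC was found in 8.94% and 3.15%, AAGATGGCG in 4.29% and 1.67%, TGACGTCA in 4.11% and 2.11%, GGGCGG in 72.3% and 50.5%, and CCAAT in 40.3% and 35.1% of genes in pairs and of unpaired genes. TGANTCA went the other way, with 2.84% and 6.71%. Among genes with an H3K4me3 peak in mock, all of these gaps kept their direction and narrowed. CCGGAAG was found there in 29.8% of genes in pairs and 16.8% of unpaired genes. The narrowing was large for TATAAA (4.62% and 6.17%) and GGGCGG (74.0% and 66.7%), and slight for CCAAT (41.0% and 35.9%). These matches describe letters in a window and are not evidence of binding, and neighbouring windows of a pair overlap, so its 2 genes often share a match.

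The pair rule used no measured value. Values are the normalized tag counts of the deposited peaks, that is, tags per 10000000 tags of the library, summed over peaks with a base within 1000 bp of either start. Total tags were 13011839 after *V. cholerae* MVs, 10528314 after *E. coli* MVs and 3463875 in mock for H3K4me3, and 12077180, 7888670 and 14474665 for FAIRE in the same order. The share of tags inside peaks was 56.1%, 53.9% and 38.6% for H3K4me3, and 13.9%, 37.3% and 7.12% for FAIRE. Mock was thus the shallowest H3K4me3 library, and the enrichment of a library differed along with its treatment, so treatment, depth and enrichment cannot be told apart. Of 12 intestinal epithelial marker genes, 11, 12 and 11 had an H3K4me3 peak after *V. cholerae* MVs, after *E. coli* MVs and in mock, against 1 of 10 blood cell markers in each.

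Nearly all bidirectional promoters carried H3K4me3, with more tags and wider peaks than unpaired genes in every library. A peak was called at 737 of 798 pairs (92.4%, exact 95% interval 90.3 to 94.1) after *V. cholerae* MVs, at 731 (91.6%) after *E. coli* MVs and at 718 (89.97%, 87.7 to 92.0) in mock. Unpaired genes had a peak in 57.0%, 55.9% and 52.0%. Where a peak was called, the median level of pairs was 653.3 after *V. cholerae* MVs, 638.3 after *E. coli* MVs and 473.5 in mock, and that of unpaired genes 431.1, 398.9 and 282.9. Median called width was 3151, 3203 and 2823 bp in pairs and 2529, 2533 and 2188 bp in unpaired genes. Pairs were also higher among promoters with a CpG ratio above 0.6, where a mock peak was called at 93.5% of pairs and 76.2% of unpaired genes, with median levels of 476.3 and 294.5. Unpaired genes with the start of a long non-coding RNA head to head within 1000 bp (1376 genes) lay in between, with a mock peak at 77.3% and a median level of 355.1.

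H3K4me3 peaks at pairs reached further on their shorter side than those at unpaired genes, which leaned downstream. A single peak covered both starts at 711 of 737 pairs (96.5%) after *V. cholerae* MVs, at 705 of 731 (96.4%) after *E. coli* MVs and at 655 of 718 (91.2%) in mock. Such peaks ran a median of 1495 bp past the minus-strand start and 1530 bp past the plus-strand start after *V. cholerae* MVs, 1507 and 1560 bp after *E. coli* MVs, and 1329 and 1386 bp in mock. At unpaired genes, peaks that cover the start ran 1665, 1680 and 1512 bp downstream and 810.5, 805.0 and 715.0 bp upstream. Which gene of a pair is on the minus strand is arbitrary, so near-equal medians of the 2 strands do not show that single peaks were even. Taken by length, the shorter side of a pair's peak had a median of 1277 bp after *V. cholerae* MVs, 1290 bp after *E. coli* MVs and 1137 bp in mock, and the longer side 1750, 1781 and 1607 bp. At unpaired genes the shorter side had 778.5, 769.0 and 681.0 bp and the longer side 1730, 1744 and 1574 bp. Peaks of pairs thus also leaned to one side, by less than those of unpaired genes. The distance of the peak centre from the midpoint of pairs, in either direction, had a median of 248.5, 257.5 and 245.8 bp, against 462.5, 479.5 and 477.0 bp from the start of unpaired genes.

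**Figure D1:**
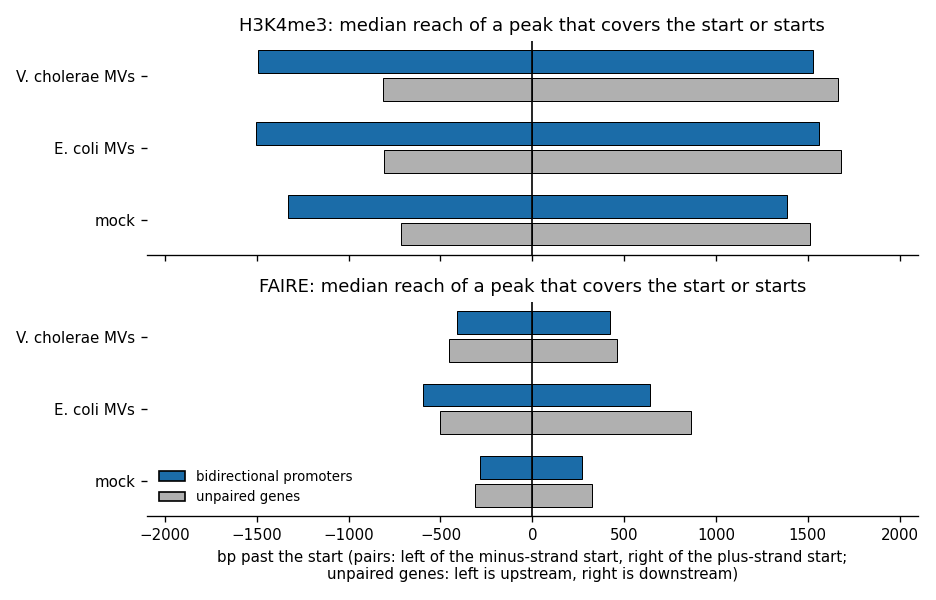
Median distance in bp by which a peak runs past the start, for peaks that cover the start of an unpaired gene (grey, left upstream, right downstream) or both starts of a pair (blue, left of the minus-strand start and right of the plus-strand start). H3K4me3 in mock reached 1329 and 1386 bp at pairs, and 715.0 bp upstream and 1512 bp downstream at unpaired genes, and the strands of a pair are arbitrary sides, so the blue bars do not show how even a single peak was.

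Free DNA was called at most pairs after MVs and at a minority in mock. FAIRE peaks were called at 649 pairs (81.3%) after *V. cholerae* MVs, at 771 (96.6%) after *E. coli* MVs and at 314 (39.3%) in mock. Unpaired genes had one in 49.7%, 70.4% and 26.1%. Median levels were 44.7, 117.9 and 15.2 in pairs and 33.1, 86.2 and 12.4 in unpaired genes. Median widths were 1048, 1466 and 629.0 bp in pairs and 914.0, 1417 and 500.0 bp in unpaired genes. The smallest called peak is 500 bp wide, so the mock widths lie at or near that floor. Mock peaks held a median of 22 tags in pairs and 18 in unpaired genes. FAIRE peaks were called with both kinds of MVs and not in mock at 362 pairs (45.4%), against 28.3% of unpaired genes, and after *E. coli* MVs alone at 97 pairs (12.2%), against 18.2% of unpaired genes. The FAIRE peak lay over both starts in 562 of 649 pairs (86.6%) after *V. cholerae* MVs, in 724 of 771 (93.9%) after *E. coli* MVs and in 122 of 314 (38.9%) in mock. In mock, 121 of the 314 pairs had a FAIRE peak in the window that covered neither start. Of pairs with H3K4me3, 86.4%, 99.5% and 41.2% also had a FAIRE peak in the library of the same treatment, against 75.2%, 95.9% and 36.0% of unpaired genes with H3K4me3.

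Some pairs stayed without signal. No H3K4me3 peak was called in any library at 60 pairs (7.52%), of which 24 had a CpG ratio of 0.6 or less, against 41 of the 738 other pairs. No FAIRE peak was called at 21 pairs, and 19 pairs had no peak in any of the 6 libraries. Among the pairs without H3K4me3 were GABRA4/GABRB1 (subunits of a neuronal receptor), COL4A4/COL4A3 (basement membrane collagens), WNT3/WNT9B (secreted signalling proteins) and H2AC1/H2BC1 (testis histones), named here after their values were seen.

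H3K4me3 levels at pairs were higher after either kind of MVs than in mock, by less than at unpaired genes. Over the 718 pairs with a peak in all 3 H3K4me3 libraries, the median log2 ratio over mock was 0.41 (95% interval of the median 0.38 to 0.45) after *V. cholerae* MVs and 0.38 (0.35 to 0.41) after *E. coli* MVs. Over 9086 unpaired genes the medians were 0.67 (0.65 to 0.68) and 0.53 (0.52 to 0.54). The ratio was 1.5-fold or more above mock at 251 pairs (35.0%) after *V. cholerae* MVs, where 54.4% of all promoters were, and at 182 (25.3%) after *E. coli* MVs, where 43.1% were. It was 1.5-fold or more below mock at 1 pair after *V. cholerae* MVs and at 2 after *E. coli* MVs, where 0.520% and 0.408% of all promoters were. By counting error alone, the interval of the single ratio lay above 0 at 485 of 718 pairs and below 0 at 24 after *V. cholerae* MVs, and at 523 and 1 after *E. coli* MVs. *V. cholerae* MVs over *E. coli* MVs gave a median of 0.03 (0.01 to 0.04), with 5 pairs 1.5-fold or more higher and 1 lower, where 4.38% and 0.571% of all promoters were. Part of the higher tag counts lay in wider peaks, since per 1000 bp of called peak the medians over mock were 0.25 and 0.21. Unpaired genes had 0.38 and 0.28 on that scale, so their gap to pairs was narrower. Scaling tags to the tags inside all peaks of a library lowers every H3K4me3 ratio over mock by 0.54 and 0.48. The medians of pairs were then -0.14 and -0.10, so the direction at a typical pair depends on the scaling. The shift is the same for both classes, so this scaling cannot change the difference from unpaired genes.

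The H3K4me3 ratio moved with base composition and with level, and pairs differ from unpaired genes in both. In 4 equal classes of GC content, from the lowest to the highest, the median ratio of pairs after *V. cholerae* MVs was -0.02, 0.13, 0.40 and 0.73, and that of unpaired genes 0.25, 0.37, 0.66 and 1.02. After *E. coli* MVs it was 0.14, 0.23, 0.38 and 0.58 in pairs and 0.30, 0.35, 0.52 and 0.75 in unpaired genes. Pairs were thus lower in each of the 4 GC classes. Of 4 classes of mean level over the 3 libraries, the top one held 56.0% of pairs and 22.6% of unpaired genes, with medians after *V. cholerae* MVs of 0.31 in pairs and 0.36 in unpaired genes. In the lowest level class they were 0.95 and 1.08. With GC content and level combined, pairs were lower in 8 of the 10 classes that held 20 or more pairs, with differences between -0.10 and 0.06 after *V. cholerae* MVs and between -0.13 and 0.002 after *E. coli* MVs. Over all promoters with ratios the differences were -0.26 and -0.15. Level and ratio rest on the same 3 libraries, so this is a description and not an adjustment.

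The median FAIRE ratio of pairs over mock was above that of unpaired genes as a whole after *V. cholerae* MVs. After *E. coli* MVs the intervals of the medians overlapped. Only 282 pairs had a FAIRE peak in all 3 libraries, so the ratios leave out the 516 others, most of them for want of a mock peak. The median log2 ratio over mock was 1.60 (1.47 to 1.72) after *V. cholerae* MVs and 3.10 (2.97 to 3.20) after *E. coli* MVs, against 1.40 (1.36 to 1.44) and 3.02 (2.98 to 3.07) over 3319 unpaired genes. The ratio was 1.5-fold or more above mock at 248 pairs (87.9%) after *V. cholerae* MVs, where 78.6% of all promoters were, and at 280 (99.3%) after *E. coli* MVs, where 98.0% were. It was 1.5-fold or more below mock at 3 pairs and at none, where 2.08% and 0.139% of all promoters were. *V. cholerae* MVs over *E. coli* MVs gave a median of -1.49, with 266 pairs (94.3%) 1.5-fold or more lower and 1 higher, where 92.4% and 0.528% of all promoters were. Among promoters with a CpG ratio above 0.6, the medians over mock were 1.61 and 3.10 in pairs and 1.49 and 3.09 in unpaired genes. Unpaired genes with a long non-coding RNA start head to head had medians of 1.63 and 3.17, both above those of pairs. Within classes of GC content and level, pairs were lower in 3 and 6 of the 8 that held 20 or more pairs. The differences ran from -0.35 to 0.26 after *V. cholerae* MVs and from -0.39 to 0.50 after *E. coli* MVs. Scaled to the tags inside peaks, the medians of pairs were 0.64 and 0.70 over mock and -0.06 for *V. cholerae* MVs over *E. coli* MVs.

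The distance between the starts went with the signal. Pairs 1 to 100 bp apart (316), over 100 to 300 bp apart (339) and over 300 bp apart (143) had median mock H3K4me3 levels of 512.4, 470.6 and 412.8. Their median H3K4me3 ratios over mock were 0.37, 0.41 and 0.66 after *V. cholerae* MVs and 0.35, 0.37 and 0.51 after *E. coli* MVs, at GC contents of 61.5%, 62.7% and 61.4%. FAIRE levels ran the other way, with medians of 92.5, 136.9 and 157.8 after *E. coli* MVs and 37.3, 47.2 and 58.0 after *V. cholerae* MVs, and FAIRE widths after *E. coli* MVs were 1322, 1504 and 1876 bp. The window reaches 1000 bp past each start, so it widens with the distance and can take in more peaks. How far this bears on the FAIRE levels and widths was not tested. Pairs beyond either end of the rule are given here as values. The 448 promoters whose 5′ ends overlap by up to 1000 bp, which the rule leaves among the unpaired genes, had an H3K4me3 peak in mock at 89.5%, a mock level of 424.4 and ratios over mock of 0.50 and 0.40. The 70 promoters more than 1000 and up to 2000 bp apart had a mock peak at 78.6%, a level of 392.6 and ratios of 0.69 and 0.52. Just inside the limit, PSMB1/TBP at 995 bp had H3K4me3 levels of 1085.2, 1261.4 and 1068.2, APBA3/MRPL54 at 990 bp had 522.6, 559.4 and 412.8, and MS4A6A/MS4A4A at 991 bp had no peak in any library. Just outside it, TXNDC12/BTF3L4 at 1008 bp had 1124.4, 1212.0 and 981.6.

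Among bidirectional promoters, those of chromosomes 16, 19 and 20 had the highest median H3K4me3 ratios. Unpaired genes were not split by chromosome, so this is not shown to be particular to pairs. After *V. cholerae* MVs the median over mock was 0.85 over 35 pairs of chromosome 16, 0.68 over 54 of chromosome 19 and 0.67 over 18 of chromosome 20, against 0.15 over 46 pairs of chromosome 6. After *E. coli* MVs the same chromosomes gave 0.56, 0.55, 0.56 and 0.22. Median GC content of these pairs was 65.5%, 61.3%, 66.2% and 56.7%. Chromosome 6 holds the large histone cluster, and chromosome 19 is the most gene-dense. Whether these features or GC content bear on the ratios was not tested.

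Classical bidirectional promoters carried H3K4me3 in every library. Of 22 pairs taken from textbook knowledge, the rule found 14. Others, such as HSPD1/HSPE1, have outermost annotated 5′ ends that pass each other and fall outside it. All 14 had H3K4me3 in every library, with levels of 295.9 to 1085.2 (median 797.4) after *V. cholerae* MVs, 318.2 to 1261.4 (852.4) after *E. coli* MVs and 225.2 to 1068.2 (672.7) in mock. Their log2 ratios ran from -0.07 to 0.45 and from -0.01 to 0.50, and 0 of 14 reached 1.5-fold, where 35.0% and 25.3% of all pairs did. The mock median of the 14 lay above the 473.5 of all pairs, and ratios were lower in higher level classes. PPAT/PAICS had 809.3 after *V. cholerae* MVs, 871.9 after *E. coli* MVs and 756.4 in mock, so its libraries differed little. NPAT/ATM, which joins a regulator of histone genes to a kinase of the DNA damage response, had 850.0, 883.3 and 892.1. SARS2/MRPS12 had 647.1, 605.0 and 473.5. FAIRE at the 14 pairs was called after both kinds of MVs at each, with 19.0 to 115.1 after *V. cholerae* MVs and 69.7 to 334.7 after *E. coli* MVs, and in mock at 6, with 8.98 to 22.1.

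Genes of several housekeeping systems were often paired. Of 74 DNA repair genes 26 were in pairs (35.1%), of 60 core histone genes 23 (38.3%), of 108 genes of the respiratory chain and its assembly 25 (23.1%) and of 78 mitochondrial ribosomal genes 17 (21.8%), where 8.61% of all coding genes were. Of 92 genes on the cytosolic ribosome list 12 were in pairs, of 49 proteasome genes 6, of 36 tRNA synthetase genes 3 and of 504 ZNF genes 30 (5.95%). Lists by symbol take in a few other genes, such as the kinase gene RPS6KB1 on the ribosome list.

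Of the 24 DNA repair promoters with an H3K4me3 peak in all libraries, 6 were 1.5-fold or more above mock after *V. cholerae* MVs and 4 after *E. coli* MVs, where 35.0% and 25.3% of all pairs were. Their medians were 0.21 and 0.30, against 0.41 and 0.38 over all pairs. The DNA repair promoters had a median GC content of 59.8% and a median mock level of 552.85, against 62.0% and 473.5 over all pairs. XRCC3/ZFYVE21, with a recombination repair gene, had 631.7 after *V. cholerae* MVs, 529.0 after *E. coli* MVs and 242.5 in mock (log2 ratios 1.38 and 1.13), and its FAIRE values were 117.6, 337.2 and 11.7. Both assays were thus lowest in mock there. TP53BP1/MAP1A, with a gene of double-strand break repair, had the largest ratios of the list, 2.15 and 1.73, from low H3K4me3 levels of 115.3, 86.4 and 26.0, the last from 9 tags. XPC/LSM3, with a damage sensor of nucleotide excision repair, had 668.6, 743.7 and 759.3.

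Mitochondrial promoters were high in H3K4me3 in every library. The 16 promoters of mitochondrial ribosomal genes had medians of 727.4 after *V. cholerae* MVs, 871.0 after *E. coli* MVs and 677.0 in mock, and none reached 1.5-fold in either direction over mock. MRPL46/MRPS11, which joins 2 genes of that ribosome, had 787.7, 871.9 and 799.7. The 16 promoters had median ratios of 0.19 and 0.26, at a median GC content of 56.2%. All pairs in the GC class around that value (51.2 to 59.1%) had similar medians, 0.13 and 0.23. Respiratory chain promoters had medians of 717.0, 732.3 and 580.3, and 6 and 3 of 23 were 1.5-fold or more above mock. Of all pairs, 35.0% and 25.3% were that far above mock after *V. cholerae* MVs and after *E. coli* MVs. TIMM8B/SDHD, with a subunit of succinate dehydrogenase, had 823.1, 857.7 and 860.3, whereas TEPSIN/NDUFAF8, with an assembly factor of complex I, had 773.1, 631.6 and 303.1 (1.35 and 1.06).

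Histone pairs were the lowest of the lists in H3K4me3. Their 11 promoters, all with a histone gene on each side, had median levels of 329.0 after *V. cholerae* MVs, 331.9 after *E. coli* MVs and 301.6 in mock over the 10 with a peak, and median ratios of 0.09 and 0.14. H2AC14/H2BC14 had 41.5, 50.3 and 86.6, the only one of these pairs 1.5-fold or more below mock (-1.06, counting interval -1.73 to -0.37, and -0.78, -1.46 to -0.09), from 54, 53 and 30 tags. H2BC11/H2AC11 had 236.7, 244.1 and 231.0. Median FAIRE levels of histone pairs were 31.1 after *V. cholerae* MVs and 43.8 after *E. coli* MVs, below the 44.7 and 117.9 of all pairs, and mock FAIRE peaks were called at 2 of 11. Histone genes of the cluster are near copies of each other, so how tags were placed among them can affect these values.

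Cytosolic ribosomal promoters had medians of 878.8 after *V. cholerae* MVs, 856.7 after *E. coli* MVs and 627.9 in mock, and 3 and 2 of 12 were 1.5-fold or more above mock. MED22/RPL7A had 870.7, 837.7 and 516.8 (0.75 and 0.70), and RPL9/LIAS had 865.4, 1074.2 and 993.1 (-0.20 and 0.11). Proteasome promoters had medians of 858.0, 894.2 and 747.8, with PSMA2/MRPL32 at 845.4, 897.6 and 822.8. The 3 tRNA synthetase promoters had ratios near 0, with medians of -0.03 and 0.09, and RARS2/ORC3 had 828.5, 930.8 and 944.0. Of 24 ZNF promoters, 9 and 6 were 1.5-fold or more above mock, with IRGQ/ZNF576 at 852.3, 783.6 and 444.6. Counts this size stand beside the 35.0% and 25.3% of all pairs. The lists were not matched to all pairs in level or GC content.

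A single gene of the NF-kB and stress list lay in a pair, IER2, an immediate early gene. STX10/IER2 had the highest H3K4me3 of the pairs named here after either kind of MVs, with 1614.7 after *V. cholerae* MVs, 1355.4 after *E. coli* MVs and 883.4 in mock (0.87, counting interval 0.70 to 1.05, and 0.62, 0.44 to 0.80). Its FAIRE level was 34.8 after *V. cholerae* MVs and 578.0 after *E. coli* MVs, with no mock peak in the window. The FAIRE peak after *E. coli* MVs spanned 6869 bp, against 848 bp after *V. cholerae* MVs. With touching peaks of the 3 libraries joined into regions, the FAIRE level was 130.0 after *V. cholerae* MVs and 13.8 in mock, from 20 tags, so the lack of a mock peak depends on the window.

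Among pairs in the upper 50% of mean level, the same 3 pairs had the largest H3K4me3 ratios over mock for both kinds of MVs. Larger ratios, up to 2.96 after *V. cholerae* MVs, were at pairs with lower levels. MAN2B1/WDR83, with the gene of lysosomal alpha-mannosidase, had 1108.2 after *V. cholerae* MVs, 979.3 after *E. coli* MVs and 236.7 in mock (2.23 and 2.05). GPR108/TRIP10 had 1000.6, 847.2 and 216.5 (2.21 and 1.97). TMEM276/KIFC2, with a kinesin gene, had 999.1, 774.1 and 233.8 (2.10 and 1.73). In all 3 the MV libraries had a single peak of 4918 to 7087 bp, and mock had 2 or 3 shorter peaks over the same stretch, not all of them within the window. When peaks of the 3 libraries that touch were joined into regions and all their tags counted, the ratios were 0.54 and 0.36 at MAN2B1/WDR83, 1.24 and 1.00 at GPR108/TRIP10, and 1.47 after *V. cholerae* MVs at TMEM276/KIFC2. MAN2B1/WDR83 was thus under 1.5-fold in this count, which was chosen after the data were seen.

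At the other end of the same group, several pairs had lower H3K4me3 levels after *V. cholerae* MVs than in mock. WDHD1/SOCS4, with a replication factor and a suppressor of cytokine signalling, had 679.4 after *V. cholerae* MVs, 925.1 after *E. coli* MVs and 892.1 in mock (-0.39, -0.58 to -0.20, and 0.05, -0.13 to 0.24). C2CD3/PPME1 had 706.3, 870.0 and 909.4, and ALKBH1/SLIRP had 1031.4, 1291.8 and 1304.9. In these 3 the library of *V. cholerae* MVs was the lowest and the other libraries lay close together. CBX5/HNRNPA1, with genes of a heterochromatin protein and an RNA-binding protein, had 1039.8, 1148.3 and 1258.7 (-0.28 and -0.13), and FBXO8/CEP44 had 749.3, 795.0 and 874.7. ALKBH1/SLIRP, CBX5/HNRNPA1 and PROSER1/NHLRC3 (1215.0, 1308.9 and 1166.3) had the highest mock levels of all pairs. The widest mock peaks were those of RHOF/SETD1B, with the gene of an H3K4 methyltransferase, at 9738 bp after *V. cholerae* MVs, 9480 bp after *E. coli* MVs and 9459 bp in mock.

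H3K4me3 was called with both kinds of MVs and not in mock at 12 pairs, after *V. cholerae* MVs alone at 7 and after *E. coli* MVs alone at 1. These are 1.504%, 0.877% and 0.125% of pairs, against 3.64%, 1.52% and 0.512% of unpaired genes. PLAG1/CHCHD7, with a zinc-finger transcription factor, stood apart among them, with 625.6 after *V. cholerae* MVs and 504.4 after *E. coli* MVs, from 814 and 531 tags, and no mock peak in the window. CENPB/CDC25B, with a centromere protein and a cell cycle phosphatase, had 204.4 and 234.6. TNNC2/SNX21 had 114.5 and 103.5. No pair had an H3K4me3 peak in mock alone.

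FAIRE at single pairs was mostly highest after *E. coli* MVs. MBOAT7/TSEN34 had 246.7 after *V. cholerae* MVs, 1025.5 after *E. coli* MVs and 68.4 in mock, and the mock value was the highest of all pairs. POLR2L/TSPAN4, with a shared subunit of the RNA polymerases, had 39.7, 600.8 and 12.4 (1.68 and 5.59), with 2 peaks after *E. coli* MVs that together covered 12867 bp. SEPTIN10/SOWAHC had 64.6, 400.6 and 11.7. Beside these stood pairs high after both kinds of MVs, such as SPRING1/RNFT2 with 83.6, 183.8 and 8.29 (3.33 and 4.47). CASP9/DNAJC16, with an initiator caspase, had 86.9 and 554.0, and KCTD9/CDCA2 had 130.0 and 432.3, each with no mock peak in the window. DDX51/NOC4L, with 2 genes of ribosome assembly, had 9.11, 252.3 and 17.3, so that *V. cholerae* MVs lay below mock by -0.92 with a counting interval of -2.09 to 0.15 that includes 0. Several of these values depend on the window. In joined regions DDX51/NOC4L had 23.2, 252.3 and 44.9 (-0.95 and 2.49), and CASP9/DNAJC16 had 153.1, 554.0 and a mock value of 18.7 from 27 tags. SEPTIN10/SOWAHC then had 25.5 in mock, and POLR2L/TSPAN4 had 81.0 after *V. cholerae* MVs, while KCTD9/CDCA2 still had no mock peak. Among pairs in the upper 50% of FAIRE level, the smallest ratios after *E. coli* MVs were those of TEX46/KDM1A (1.62), with the gene of an H3K4 demethylase, ATG2B/GSKIP and AGPAT1/RNF5. A FAIRE peak in mock alone was called at RAD51D/FNDC8, with 8.98 from 13 tags.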

How the data were processed

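H3K4me3 ChIP-seq and FAIRE libraries of HCT8 cells were used as deposited, 1 peak list per library, 6 in all. Input libraries (2) were not used here. The submitters' processing notes name Bowtie 1.1.2, SAMtools 1.3.1 and HOMER 4.7.2, and reads were aligned to hg19 (GRCh37). Per the file headers, peaks were called with HOMER in its histone mode against an input at 4-fold, p 0.0001, with a minimum distance of 1000 bp, and nothing was pooled. The deposited signal is the tag count of a peak scaled by the authors to 10000000 tags per library. The deposited ratio, or fold over input, was used only for a stricter list (8-fold). The deposited region size is the called width in bp.

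The rounded values gave whole tags back (largest distance from a whole number 0.0721), which served for intervals. Peaks with a base within 1000 bp of either start were summed per promoter, starts being the outermost 5′ ends in GENCODE release 44 lifted to GRCh37. Ratios are log2 ratios of sums where all 3 libraries of an assay had a peak. Intervals of medians are rank-based over promoters, those of shares exact binomial and those of single ratios exact from the tags, all at 95%. The 4 classes of GC content were cut over all promoters, those of level over promoters with ratios. With 1 library per treatment no test between treatments was made, and a fold of 1.5 was used to count. In bulk libraries a change in a share of cells and a change per cell cannot be told apart.

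Pairs were named by rule: textbook pairs, the 3 highest and 3 lowest ratios in the upper 50% of level, the highest or widest in mock, the most tags with MVs and none in mock or the reverse, and the highest and lowest of each gene list. The members, lists and rule were chosen with earlier results of these data known. Alternatives were windows of 500 and 2000 bp, overlapping peaks only, a greatest distance of 500 bp, own windows, stricter peaks, scaling to tags in peaks and to width. Chosen after seeing the data were joined regions, canonical transcript starts and leaving out unpaired genes with overlapping starts. Python 3.11.15, pandas 2.3.3, numpy 2.4.6, scipy 1.17.1, pysam 0.24.0 and matplotlib 3.10.9 were used, and the intervals were tested on simulated data.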

Additional observations from a re-analysis of the deposited data

Results flagged for a closer look

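FAIRE at GGN/SPRED3, singled out after its values were seen, lay below mock after *V. cholerae* MVs and above mock after *E. coli* MVs. The level was 13.2 after *V. cholerae* MVs, 162.2 after *E. coli* MVs and 26.3 in mock, from 16, 128 and 38 tags. The log2 ratio over mock was -0.99 (counting interval -1.93 to -0.11) after *V. cholerae* MVs and 2.63 (2.10 to 3.19) after *E. coli* MVs. Of the 282 pairs with FAIRE ratios, the interval after *V. cholerae* MVs lay above 0 at 235 and below 0 at 1. As 1 case picked from 282, an interval below 0 carries little weight. Per 1000 bp of called peak the ratio after *V. cholerae* MVs was 0.16. With 1 library each, the difference was not tested.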

How the results depend on the processing

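No paired analysis was possible because every assay was run on 1 library of each kind of cells. Over all pairs, the medians and differences moved little with own windows, a greatest distance of 500 bp, overlapping peaks only, joined regions or without unpaired genes with overlapping starts. In joined regions the levels of several single pairs moved by over 1.5 times, as given beside them. Scaling to tags in called peaks reversed the H3K4me3 medians of pairs (-0.14 and -0.10 over mock, -0.029 for *V. cholerae* MVs over *E. coli* MVs) and gave a mock level of 1228, and for FAIRE it gave 0.64, 0.70 and -0.064 with a mock level of 214. This scaling turned the sign of FAIRE ratios after *E. coli* MVs at AGPAT1/RNF5 (-0.34), ATG2B/GSKIP (-0.55), H2BC11/H2AC11 (-0.75), MRPL46/MRPS11 (-0.65), RPL9/LIAS (-0.54), TEX46/KDM1A (-0.77) and TIMM8B/SDHD (-0.35), and after *V. cholerae* MVs at TP53BP1/MAP1A (-0.16). Per 1000 bp of peak, H3K4me3 medians were 0.25 and 0.21 with a mock level of 165.8, and the differences between pairs and unpaired genes were -0.14, -0.063 and -0.072. FAIRE medians were 0.77, 1.77 and -0.99 with a mock level of 23.4, and the differences were 0.23 after *E. coli* MVs and -0.061, with the sign turned, for *V. cholerae* MVs over *E. coli* MVs. The H3K4me3 ratios then turned at CASP9/DNAJC16 (-0.092 and -0.049) and at MAN2B1/WDR83 after *E. coli* MVs (-0.0094), and the FAIRE ratio at GGN/SPRED3 (0.16). Peaks at least 8-fold over input left FAIRE peaks in mock at 1.13% of pairs with a level of 11.1, and only 2 pairs with ratios, whose medians were 0.65, 0.94 and -0.29 and whose differences from unpaired genes were -0.83, -2.21 and 1.38. Pairs with a mock FAIRE peak were 44.4% with a window of 2000 bp and 34.6% with 500 bp. Canonical transcript starts gave an H3K4me3 mock peak at 94.9% of pairs, a level of 512.4 and a width of 2918 bp. They also changed the members, to 883 promoters with 1834 genes. Only 1052 of the 1656 genes described here were in pairs both ways. Apart from the turns by construction of each scaling, the causes were not tested. Mock H3K4me3, the shallowest library, limits every H3K4me3 ratio.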
